A study of Mus musculus with 4 samples.

Results

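The contrast described here asks whether cochlear hair cells and the other cells of the same organs answered gentamicin differently: for each gene, the change under the drug in hair cells minus the change under the drug in non-hair cells. It uses all 12 replicate columns of the 4 deposited tables, 3 for each group, and no replicate was left out. Cochleae of postnatal day 1 Atoh1-GFP mice on the CD1 background were cultured overnight, and the treated organs then received 0.5 mM gentamicin for 3 h. GFP positive hair cells and GFP negative non-hair cells were sorted from them and their polyA RNA was sequenced, so that both populations and all 4 groups share the reporter, the low-oxygen culture, penicillin in the medium and the dissociation. The reporter follows an Atoh1 enhancer and also marks some inner phalangeal cells at a low level, which the sort gated out. The non-hair cells were a mixture of supporting cells, cells of the greater and lesser epithelial ridges and surrounding tissue.

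Aminoglycosides such as gentamicin bind ribosomes and enter hair cells, where they impair protein synthesis and lead to death of the cells. Cells under such stress phosphorylate eIF2α, which lowers general translation while translation of the transcription factor ATF4 goes on, and ATF4 drives CHOP, encoded by Ddit3. In parallel, the level of sterol in the endoplasmic reticulum sets the activity of SREBP, a transcription factor for the enzymes of cholesterol synthesis, through the anchor proteins SCAP and INSIG.

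Each value below is a score, the deposited normalized read number: reads on a gene times a factor for the replicate, plus 1, with no division by gene length. A score unit was worth 21.7 to 28.5 reads, and 22399803 to 28151367 reads on genes were recovered per replicate. Responses are log2 differences of mean log2 scores, gentamicin minus control, and because of the added 1 they understate the change of genes with low scores. The test was limma on all 4 groups, run on the 16077 of 23420 genes that had 100 or more reads recovered in all, and p-values were adjusted by Benjamini and Hochberg over all of them. The median SD of log2 scores between replicates was 0.0945 in control hair cells, 0.127 in treated hair cells, 0.145 in control non-hair cells and 0.157 in treated non-hair cells. Hair cell marker genes such as Atoh1 (223, 190.3 and 215 in control hair cells, 1.29, 1.36 and 1.502 in control non-hair cells) were in keeping with the labels, and none of the 35 hair cell markers tested had a called difference of responses.

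Libraries stood apart in some programs. Genes of glycolysis were low in 1 treated replicate of each population, as described below. Some of the results that rest on these libraries, but not all, are given with and without them. RNA of the other population also moved with treatment in the hair cell samples. The median level of the 232 genes whose control level in non-hair cells exceeded that in hair cells over 16-fold was 2.86%, 5.22% and 2.78% of their control non-hair cell level in the 3 hair cell replicates without the drug, and 1.41%, 1.83% and 1.72% in those with it. In the opposite direction, 294 genes over 16 times higher in hair cells stood at 1.31%, 1.68% and 1.83% in control and 1.36%, 0.913% and 1.77% in treated non-hair cell replicates. A fall in hair cells of a gene that is far higher in non-hair cells therefore came together with a lower share of such RNA, and its part in those results was not tested. For this reason most of the account concerns genes at matched baseline, defined as control levels within 1 log2 unit of each other and at least 5 score units in both populations. Matching does not take out genes of supporting cells. Of 27 supporting cell markers tested, 18 were at matched baseline, with a median difference of responses of -0.54. The measure above holds only genes over 16-fold apart and does not cover those 18, whose part in the results was not tested. The control replicates that set the match also enter the responses.

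The 2 populations answered differently in many genes. The difference of the responses had an adjusted p under 0.05 in 2158 genes, above 0 in 1102 of them (6.85% of those tested) and below 0 in 1056 (6.57%). The balance of directions depended on scaling, since scaling by total reads gave 1500 genes above and 716 below 0. At matched baseline, 8156 genes could be compared, and 816 were above 0 (10%) and 572 below 0 (7.01%). With total-read scaling the matched numbers became 1135 and 353. The number of calls also rested on single libraries. Over all genes it was 1374 without control hair cell replicate 1, 1163 without replicate 2 of that group, 1254 without treated hair cell replicate 2, 1288 without control non-hair cell replicate 2 and 1431 without treated non-hair cell replicate 1, and at matched baseline the first 4 of these gave 846, 763, 823 and 875. Genes with control levels over 1 log2 unit higher in non-hair cells leaned to one side, with 31 of 1843 above 0 and 241 below 0, and the median difference among them was -0.41 against -0.07 over all genes tested. Among the 1476 genes that were higher in hair cells the directions were even, with 94 above and 93 below. Fewer calls were made where a level was low, with 24 above and 46 below among 1508 genes low in hair cells, 28 and 47 among 655 low in non-hair cells, and 109 and 57 among 2439 low in both.

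Most called differences at matched baseline were changes of hair cells. By the criteria of the study, an unadjusted p under 0.01 with a change over 1.2-fold, 12.7% of all genes tested rose and 14.8% fell in hair cells, against 3.18% and 2.26% in non-hair cells. At matched baseline 2647 genes met them in hair cells and 512 in non-hair cells. Both lists held 215 genes, which is 8.12% of the first list and 42.0% of the second. The 8.12% is to be read beside 512 of all 8156 matched genes, and the 42.0% beside 2647 of 8156. Both were only modestly above those shares. The median absolute response was 0.24 in hair cells and 0.12 in non-hair cells on the log2 scale over the 8156 matched genes, although replicates of non-hair cells varied more. Of the 1388 called matched genes, 1051 met the criteria in hair cells while their non-hair cell response had an unadjusted p of at least 0.05, and 57 showed the reverse. Where hair cells rose (1538 matched genes, median 0.50), the median response in non-hair cells was 0.06, and 66.8% of these genes had a response above 0 there too. Where hair cells fell (1109 matched genes, median -0.48), the non-hair cell median was -0.06 and 65.7% had the same sign. Over all 8156 matched genes the median response in non-hair cells was 0.01. In the plot of responses at matched baseline, the called genes lie above and below the diagonal of equal response.

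**Figure D1:**
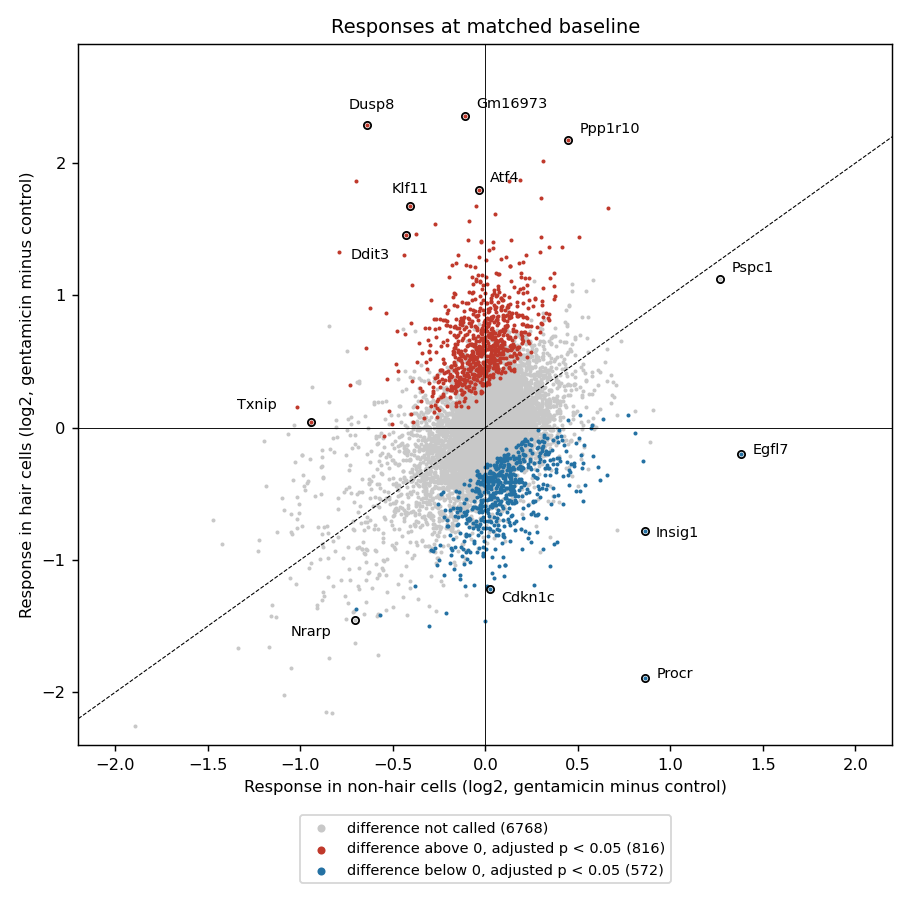
Response to gentamicin in hair cells (vertical axis, log2) against that in non-hair cells (horizontal axis, log2) for the 8156 genes at matched baseline, with the diagonal of equal response dashed. The 816 red genes responded more positively in hair cells and the 572 blue genes less so (adjusted p under 0.05), and the red and blue clouds stretch along the hair cell axis; 1 gene lies outside the axes.

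Opposite responses were rare. Of the 313 genes that met the criteria in both populations, 277 moved in the same direction and 36 in opposite directions, 21 of them at matched baseline. All 36 had a called difference of responses, which the choice of opposite signs in part fixes. The number rested on single libraries, being 18 without control hair cell replicate 1, 19 without treated hair cell replicate 1, 18 without control non-hair cell replicate 2 and 65 without treated non-hair cell replicate 3. In 11 of the 21 the level rose in hair cells and fell in non-hair cells, and in 10 it did the reverse.

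Klf11 (chr12:24651274-24662789 on mm10), a Krüppel-like transcription factor, differed most among the genes that rose in hair cells and fell in non-hair cells. Its scores were 16.5, 19.5 and 18.6 in control hair cells and 53.7, 73.1 and 49.1 in treated ones. In non-hair cells they went from 30.8, 31.8 and 28.9 to 22.1, 23.5 and 23.4. The replicates of control and treatment did not overlap in either population, and the moves were 1.67 and -0.41 on the log2 scale. Absence of overlap was a condition for naming the genes of opposite response, so it adds no support to them. Hair cells minus non-hair cells gave a difference of 2.08 on the log2 scale (95% interval 1.67 to 2.48, limma adjusted p = 0.000338). Ddit3, which encodes the stress factor CHOP, started from nearly equal levels of 26.5 ± 2.75 (SD, n = 3) in control hair cells and 29.2 ± 4.77 in control non-hair cells. The treated replicates read 68.3, 82.8 and 67.3 in hair cells, each above every other sample, and 19.2, 22.6 and 22.96 in non-hair cells, each below the controls. The responses differed by 1.88 on the log2 scale (95% interval 1.47 to 2.304, limma adjusted p = 0.000652). The zinc finger genes Zfp949, Zfp97 and Zfp40 and N4bp2l1 were others of these 11, with differences of 1.74, 1.40, 1.21 and 0.96 (adjusted p from 0.0001995 to 0.0131). Zinc finger genes have many near-identical copies, among which 50 bp reads can be split, so their values are uncertain.

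In the reverse group Procr (chr2:155751117-155755471), the endothelial protein C receptor, had low scores. They were 7.04, 6.09 and 6.58 in control and 1.87, 1.79 and 1.64 in treated hair cells, and 4.97, 5.48 and 6.17 and 9.73, 7.81 and 13.3 in non-hair cells. Its level fell to close to the floor of 1 in hair cells and rose in every treated non-hair cell replicate above every control. Between the populations the difference was -2.76 on the log2 scale (95% interval -3.31 to -2.204, limma adjusted p = 0.000355). Insig1 and Dhcr7 of cholesterol synthesis were in the same group and are described with their pathway. Zfp783 (difference -0.97, adjusted p = 0.00451) and N4bp2 (difference -0.89, adjusted p = 0.00168) also fell in hair cells and rose in non-hair cells. N4bp2 had scores of 44.2, 40.2 and 39.7 and then 29.3, 29.6 and 32.7 in hair cells, and 38.5, 37.6 and 39.8 and then 53.7, 56.5 and 48.5 in non-hair cells.

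**Figure D2:**
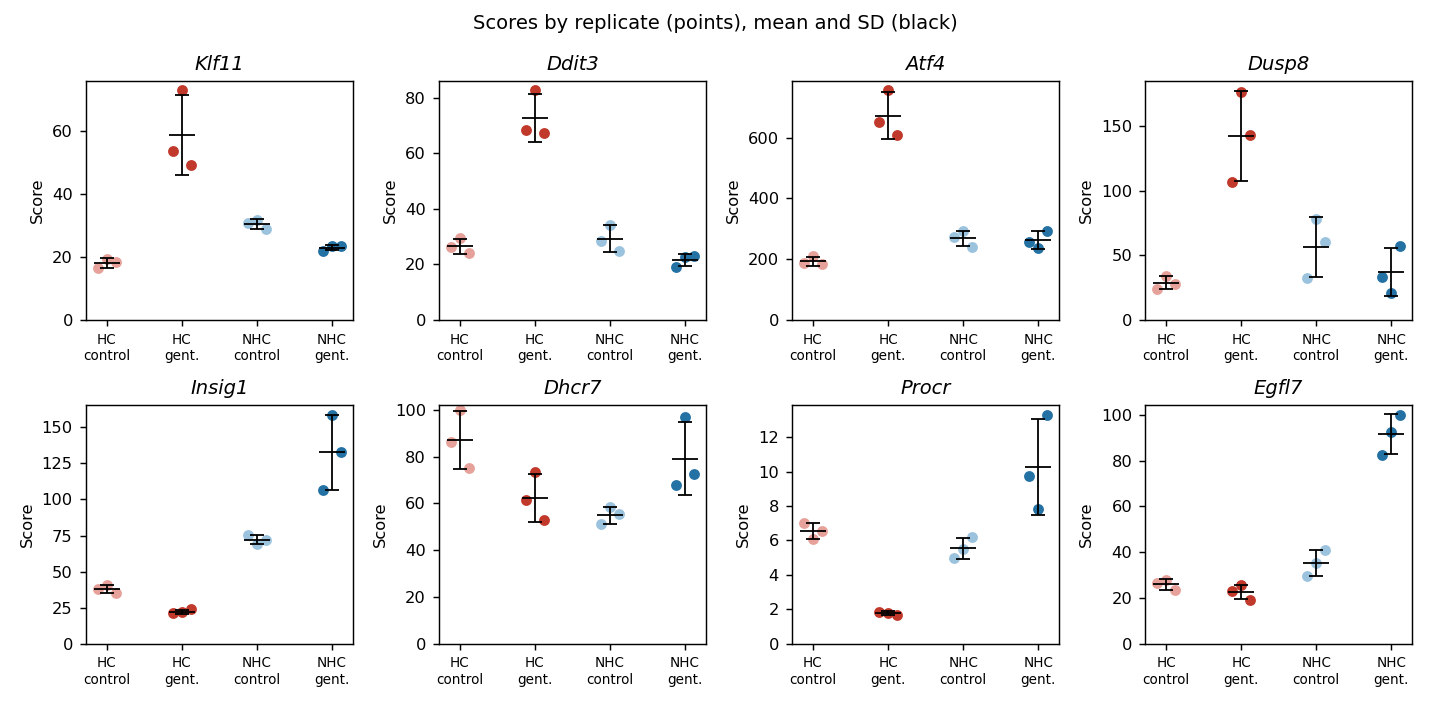
Scores (linear axes from 0) of 8 genes at matched baseline in the 3 replicates of each group, with mean and SD in black. Klf11, Ddit3, Atf4 and Dusp8 stand highest in treated hair cells, Insig1, Dhcr7 and Procr fall there while they rise in treated non-hair cells, and Egfl7 is higher in treated non-hair cells alone.

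A rise in hair cells, with a non-hair cell response that had an unadjusted p of at least 0.05, was found for 666 matched genes with a called difference. Dusp8 (chr7:142079490-142095843), a phosphatase of JNK and p38 kinases, had the largest difference of them. It stood at 24.3, 34.1 and 28.1 in control hair cells and at 107, 177 and 143 in treated ones. Its non-hair cell replicates were scattered and overlapped, at 32.2, 78.3 and 60.1 and 33.4, 20.99 and 57.1. The difference of the responses was 2.93 on the log2 scale (95% interval 1.77 to 4.08, limma adjusted p = 0.00671). Atf4 (chr15:80255184-80257541), the central factor of the integrated stress response, was expressed far higher. Scores of 186, 211 and 183 in control hair cells became 651, 757 and 608, a 3.47-fold change. Non-hair cells held 272, 292 and 242 without and 257, 236 and 294 with the drug. Hair cells minus non-hair cells gave a difference of 1.83 on the log2 scale (95% interval 1.48 to 2.18, limma adjusted p = 0.000338). Rps6kl1, Gm16973, 2610307P16Rik and Gm8801, about which little is known, followed with differences of 2.56, 2.47, 1.81 and 1.73. Ppp1r10, a nuclear targeting subunit of protein phosphatase 1 chosen after its values were seen, lies outside this group, since its non-hair cell response had an unadjusted p of 0.0394. It rose from 97.7, 96.2 and 104 to 388, 569 and 403 in hair cells. In non-hair cells the scores were 63.8, 66.5 and 78.96 and 96.5, 70.5 and 125, with overlap (difference 1.72, adjusted p = 0.004295).

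A fall in hair cells with an unadjusted p of at least 0.05 in non-hair cells was found for 385 matched genes. Cxcr7, a scavenging chemokine receptor now called Ackr3, led them with scores of 38.8, 40.98 and 43.6 in control and 20.6, 12.01 and 23.4 in treated hair cells. The non-hair cell scores were 69.4, 64.6 and 73.2 and 75.5, 101 and 74.1, where the treated replicates stood above the controls with an unadjusted p of 0.232. The responses differed by -1.46 on the log2 scale (95% interval -2.100 to -0.81, limma adjusted p = 0.0104). Cdkn1c, which encodes the cyclin-dependent kinase inhibitor p57, fell from 224, 207 and 182 to 120.4, 92.6 and 59.7 in hair cells (difference -1.25, adjusted p = 0.0253), and Bambi, a decoy receptor of the TGF-β family, from 20.2, 23.02 and 23.3 to 13.1, 14.4 and 8.48 (difference -1.23, adjusted p = 0.0455). Ncrna00085, Tmem150a and Abi3bp had differences of -1.45, -1.39 and -1.25. The calls of Abi3bp, Cdkn1c and Bambi were less stable than the others and passed in 9, 7 and 2 of the 12 fits that left out 1 replicate each.

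Genes that changed in non-hair cells with an unadjusted p of at least 0.05 in hair cells were few. A drop in non-hair cells was found in 11 matched genes and a rise in 46, of which 44 did not overlap between their non-hair cell replicates. Txnip, whose product binds thioredoxin and limits glucose uptake, had 478, 589 and 500.4 in control and 221, 262 and 342 in treated non-hair cells. Hair cell replicates were spread over 324, 379.6 and 336 and 350.0, 456 and 283, with overlap. The difference was 0.98 (95% interval 0.42 to 1.55, limma adjusted p = 0.02996), and it passed in 4 of the 12 leave-one-out fits. Ovgp1, Mdm1 and Fchsd1 differed by 1.17, 0.54 and 0.65 and passed in 9, 7 and 2 of them. Timm44, a part of the import motor of mitochondria, had a difference that passed in every one of these fits. It moved from 75.4, 83.5 and 73.7 to 60.4, 60.1 and 59.2 in non-hair cells and from 53.7, 61.6 and 60.1 to 65.4, 68.7 and 61.4 in hair cells, and its difference of 0.53 had an adjusted p of 0.00968.

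Egfl7 (chr2:26580014-26593120), a secreted protein of blood vessel endothelium, had the largest difference among the genes that rose in non-hair cells alone by these criteria. Its scores there went from 29.6, 35.2 and 41.1 to 82.4, 92.4 and 99.97, and those of hair cells from 26.4, 27.9 and 23.4 to 23.2, 25.6 and 19.2. Between the populations the difference was -1.58 on the log2 scale (95% interval -2.01 to -1.15, limma adjusted p = 0.00145). It belongs to a list of 22 endothelial markers, of which 9 rose in non-hair cells and 0 fell, beside 3.18% of all genes that rose. A called difference was found in 6, all of them below 0, as in 6.57% of all genes and 13.1% of the genes that were higher in non-hair cells at baseline. The median response of that list was 0.34 in non-hair cells and -0.25 in hair cells. Sox7 and Sox18, transcription factors of endothelial cells, differed by -1.67 and -1.25 (the latter passing in 9 of 12 leave-one-out fits), while the adhesion receptor Pecam1 did not pass, with a response of -0.27 in non-hair cells and an adjusted p of 0.409 for the difference. In bulk samples such as these, more cells of a type and more RNA per cell cannot be told apart. In hair cell samples the mean log2 score of the list was 1.51, 1.86 and 1.38 in controls and 1.09, 1.46 and 1.19 under gentamicin, against 4.14, 4.42 and 4.53 and 4.76, 4.93 and 5.13 in non-hair cells.

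Among the pathway lists, cell type markers aside, sterol and fatty acid synthesis had the largest median difference between the populations. Of its 43 tested genes, 24 had a called difference and all 24 were below 0, against 6.57% of all genes below and 6.85% above 0. In non-hair cells 23 met the criteria of the study as risen and 0 as fallen, beside 3.18% and 2.26% of all genes. In hair cells 0 met them as risen and 9 as fallen, beside 12.7% and 14.8% of all genes. The excess over all genes was thus mainly the rise in non-hair cells. The median response of the list was 0.42 in non-hair cells and -0.21 in hair cells, and the median difference was -0.59 where that of all genes was -0.07. Among the 27 members at matched baseline, 15 were called below 0 and 0 above, again with a median of -0.59. In each of the 22 alternative fits the median of the list stayed between -0.68 and -0.50.

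Dhcr7 (chr7:143823145-143848410) encodes the reductase of the last step of cholesterol synthesis. Hair cell scores of 86.1, 99.79 and 75.01 fell to 61.3, 73.3 and 52.9, and non-hair cell scores of 51.1, 58.3 and 55.6 rose to 67.998, 97.1 and 72.5. The difference of the responses was -0.99 on the log2 scale (95% interval -1.47 to -0.51, limma adjusted p = 0.0151). Insig1 (chr5:28071363-28078662), a target of SREBP that holds SREBP back in turn, went from 38.2, 40.9 and 35.2 to 20.97, 21.7 and 23.9 in hair cells. In non-hair cells the same gene went from 75.3, 68.99 and 71.9 to 106, 159 and 133. Hair cells minus non-hair cells gave a difference of -1.64 on the log2 scale (95% interval -2.03 to -1.26, limma adjusted p = 0.000816).

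Other enzymes of the pathway rose in non-hair cells while their response in hair cells missed the criteria. Idi1, the isopentenyl diphosphate isomerase, had 67.1, 65.7 and 66.2 and 67.5, 63.5 and 62.9 in hair cells, and 56.3, 50.02 and 57.9 and 83.4, 118 and 88.8 in non-hair cells (difference -0.85, 95% interval -1.198 to -0.50, adjusted p = 0.00812). Squalene epoxidase, Sqle, gave 156, 158 and 144 and 134, 136 and 137 in hair cells against 69.4, 71.7 and 85.1 and 112, 147 and 119 in non-hair cells (difference -0.91, adjusted p = 0.00467). The hair cell response was -0.04 with a standard error of 0.11 for Idi1 and -0.17 with one of 0.10 for Sqle, which leaves room for small changes. Differences for Sc4mol and Hmgcs1, which act at other steps, were -0.80 and -0.66. Some members were added after their values were seen. The SREBP gene of the sterol branch, Srebf2, and the escort Scap were called below 0 as well (-0.76 and -0.58), while Srebf1, of the fatty acid branch, was not (difference -0.40, adjusted p = 0.0554). Cyp51 and Fasn did not pass either, at -0.48 (adjusted p = 0.0875) and -0.51 (adjusted p = 0.0567). Members with nearly equal responses included Elovl6, with 0.29 in hair cells and 0.27 in non-hair cells, and Me1, with -0.37 and -0.35.

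**Figure D3:**
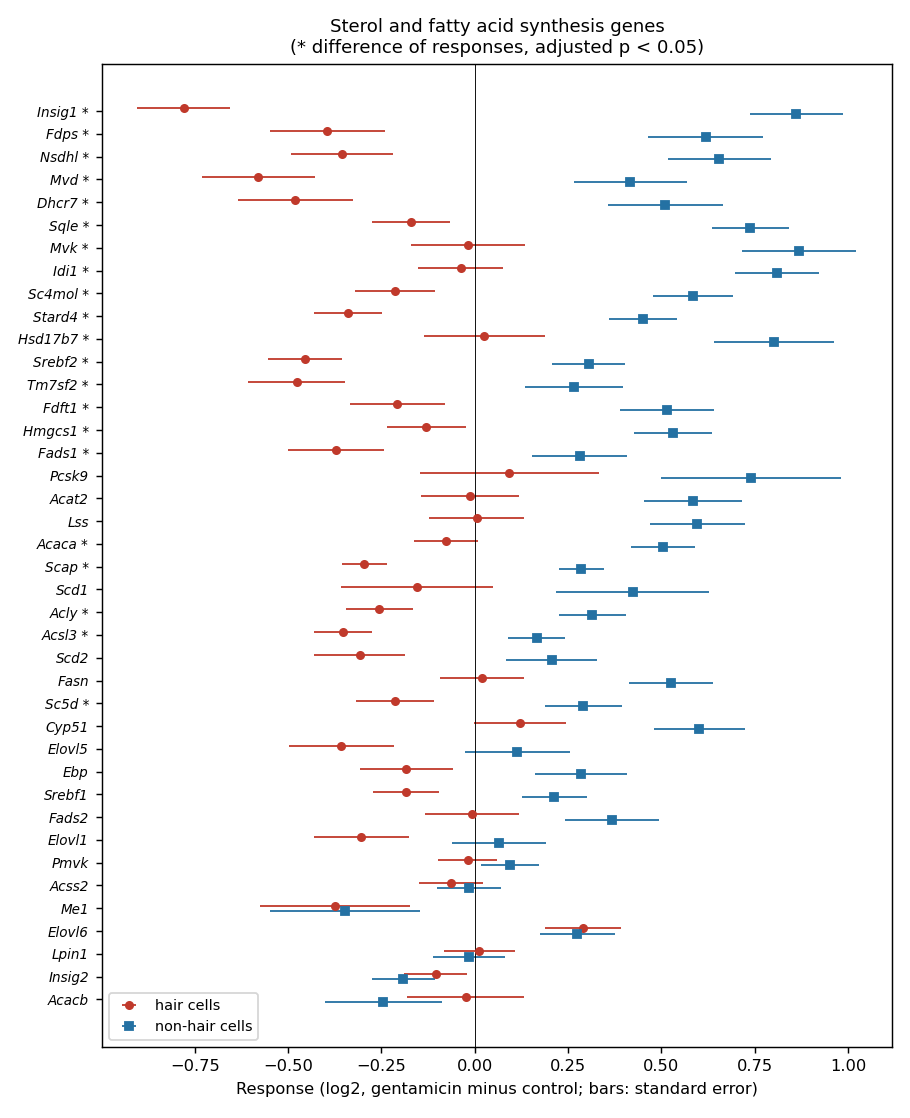
Responses (log2, with standard error) of 40 of the 43 tested genes of sterol and fatty acid synthesis in hair cells (red circles) and non-hair cells (blue squares), ordered by their difference, with called genes starred. In the 21 starred genes the blue square lies to the right of the red circle, and Elovl6 and Me1 near the bottom have nearly the same response in both.

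The promoters of the pathway are shown because many of its members moved together, and 31 of them had one in RefSeq (GRCm38.p6, the patched form of mm10). In the 250 bases before the start, CCAAT on either strand, the box that the factor NF-Y binds, was present in 24 of the 31 (77.4%) and in 4630 of the 11652 tested genes with a promoter (39.7%). The sterol element TCACNCCAC was present in 1 of the 31, Hmgcs1 (3.23%, against 1.31% of all). The E-box CACGTG was present in 6 of the 31 (19.4%, against 9.30%). Capitals mark these motifs on either strand in the bases upstream of the RefSeq starts of Insig1 (plus strand, chr5:28071162-28071411) and Hmgcs1 (plus strand, chr13:119690101-119690350). The window of Insig1 runs past its GENCODE start, since the annotations differ there:
Insig1: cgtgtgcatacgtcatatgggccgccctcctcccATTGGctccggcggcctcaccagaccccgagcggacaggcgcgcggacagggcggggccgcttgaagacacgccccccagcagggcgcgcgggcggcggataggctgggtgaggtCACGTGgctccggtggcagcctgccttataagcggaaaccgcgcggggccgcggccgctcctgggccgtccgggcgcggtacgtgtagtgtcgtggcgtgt
Hmgcs1: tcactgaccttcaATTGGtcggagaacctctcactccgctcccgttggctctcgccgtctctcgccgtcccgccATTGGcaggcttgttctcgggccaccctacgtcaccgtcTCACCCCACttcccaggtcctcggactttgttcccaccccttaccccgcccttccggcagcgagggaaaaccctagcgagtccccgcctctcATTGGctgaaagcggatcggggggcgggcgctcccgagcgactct
Insig1 held 1 CCAAT box and 1 E-box, and Hmgcs1 3 CCAAT boxes and 1 sterol element. A match is a run of letters in this window and not a site that was shown to be bound.

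The integrated stress response differed in the other direction, in a few of its genes. Of 34 tested, 5 were called above 0 and 0 below, beside 6.85% above 0 over all genes. Besides Atf4 and Ddit3 these were Cebpb, Cebpg and Ppp1r15a, the regulatory subunit that lets a phosphatase act on eIF2α, with 89.2, 112 and 95.7 and 163, 213 and 143 in hair cells. Its non-hair cell scores were 106, 144 and 127 and 84.4, 72.5 and 137 (difference 1.197, adjusted p = 0.0292, passing in 4 of the 12 leave-one-out fits). The median response of the list was -0.03 in hair cells and -0.19 in non-hair cells. The list as a whole was thus not higher in treated hair cells. In non-hair cells 7 members fell, beside 2.26% of all genes. The ATF4 targets Asns, Trib3 and Chac1, also chosen after their values were seen, had differences of 0.64 (adjusted p = 0.338), 0.30 (adjusted p = 0.743) and 0.75 (adjusted p = 0.1403). Chaperones of the endoplasmic reticulum leaned the other way, without an excess of calls. Their median difference was -0.32, against -0.07 over all genes, and 26 of 34 had a difference below 0. Only 1 was called above 0 and 2 below, beside 6.85% and 6.57% of all genes. In hair cells 11 of 34 fell and 0 rose, beside 14.8% of all genes that fell, and Hspa5, the main chaperone, had 975, 836 and 745 and then 638, 565 and 634 there against 725, 828 and 904 and then 840.2, 1014 and 809 in non-hair cells. Its difference of -0.59 missed the threshold (adjusted p = 0.0615).

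The promoters of Ddit3 and Dusp8 are shown as those of a gene with opposite responses and of the gene with the largest difference among those that rose in hair cells alone. Capitals mark the CCAAT box, the AP-1 site TGANTCA and the cyclic AMP response element TGACGTCA on either strand in the 250 bases upstream of the RefSeq starts of Ddit3 (plus strand, chr10:127290543-127290792) and Dusp8 (minus strand, chr7:142095285-142095534). The window of Dusp8 lies inside the longer GENCODE span of the gene given above:
Ddit3: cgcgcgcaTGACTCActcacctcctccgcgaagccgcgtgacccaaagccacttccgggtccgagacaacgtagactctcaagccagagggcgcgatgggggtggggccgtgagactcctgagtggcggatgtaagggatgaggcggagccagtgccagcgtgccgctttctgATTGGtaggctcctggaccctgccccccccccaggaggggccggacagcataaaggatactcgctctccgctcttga
Dusp8: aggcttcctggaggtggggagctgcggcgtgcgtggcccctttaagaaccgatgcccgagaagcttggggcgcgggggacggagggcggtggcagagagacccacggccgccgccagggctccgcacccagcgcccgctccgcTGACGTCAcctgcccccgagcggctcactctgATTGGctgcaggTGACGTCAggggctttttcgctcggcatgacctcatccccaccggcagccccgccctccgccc
Dusp8 held TGACGTCA 2 times and Ddit3 held TGANTCA 1 time. TGACGTCA was present in 31 of 622 promoters of matched genes called above 0 (4.98%), in 9 of 440 called below 0 (2.05%) and in 341 of all 11652 (2.93%). For TGANTCA the shares were 3.38%, 5.68% and 5.86%. For the amino acid response element, searched as TGATGNAAN, they were 1.77%, 1.59% and 2.51%. It was present in 8 of 30 promoters of the integrated stress response list (26.7%). In all 7 motifs were searched, with the values already known.

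Early response genes split. Of 35 AP-1 and other immediate early genes, 4 were called above 0 and 0 below, beside 6.85% and 6.57% of all genes. The median response was negative in both populations, -0.68 in hair cells and -0.55 in non-hair cells. Klf10, a Krüppel-like factor induced by TGF-β and stress, had 32.02, 35.04 and 38.7 in control and 148, 198 and 103 in treated hair cells. Non-hair cells had 71.2, 79.1 and 66.9 and 43.7, 54.9 and 46.7 (difference 2.62, 95% interval 2.04 to 3.21, adjusted p = 0.000652), and neither population overlapped between control and treatment. Jun, the AP-1 subunit that JNK acts on, differed by 1.97 (adjusted p = 0.0166). Its partner gene Fos fell in hair cells, from 337, 512 and 493 to 179, 201 and 215. In non-hair cells Fos had 1906, 2559 and 2105 and 787, 1374 and 1935, with 1 treated replicate overlapping the controls (response -0.77, unadjusted p = 0.0181), and the difference was -0.39 (95% interval -1.25 to 0.47, adjusted p = 0.542). Gadd45g, a stress sensor that activates p38 and JNK, had 37.3, 35.9 and 39.6 and 106, 113 and 70.2 in hair cells against 40.8, 41.5 and 33.98 and 13.8, 24.3 and 33.3 in non-hair cells. The responses differed by 2.12 on the log2 scale (95% interval 1.28 to 2.95, limma adjusted p = 0.00664). Of the 17 Gadd45 and Krüppel-like factor genes tested, 4 were called above 0 and 0 below, beside the same 6.85% and 6.57%. Their median of -0.02 turned positive in 9 of 22 alternative fits.

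Called differences of signaling genes are to be read beside 6.85% above and 6.57% below 0 over all genes. With 3 calls each, the lists of MAPK phosphatases and NF-κB genes exceeded the first of these shares. Among 16 MAPK phosphatases and related feedback genes 3 were above 0 and 0 below, and Dusp16, another phosphatase of JNK, read 71.3, 69.2 and 63.8 and then 117, 128 and 122 in hair cells. The non-hair cell scores of Dusp16 were 48.4, 51.4 and 59.6 and 53.97, 43.1 and 57.5 (difference 0.89, adjusted p = 0.00574). Among 22 genes of the NF-κB pathway 3 were above 0 and 0 below. They were Map3k14, the kinase of the noncanonical branch (difference 1.11, adjusted p = 0.0103), the subunit gene Nfkb1 (0.52, adjusted p = 0.0183) and the inhibitor Nfkbib (0.48, adjusted p = 0.0407, passing in 3 of 12 leave-one-out fits), while the inhibitor Nfkbia fell in non-hair cells (-0.47), had a hair cell response of -0.27 that missed the criteria, and had no called difference (adjusted p = 0.488). In the kinase cascade of JNK and p38, 1 of 34 was above 0, Mapk8, which encodes JNK1 (0.64, adjusted p = 0.00413). The 3 below 0 were Map3k3, Map3k4 and the transcription factor Elk1, at -0.86, -0.54 and -0.52, of which Map3k4 passed in 6 and Elk1 in 3 of these fits.

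Genes of cell death were close to the background of 6.85% above and 6.57% below 0 over all genes. Of 23 Bcl2 family genes 2 were above 0, the survival gene Mcl1 (0.56, adjusted p = 0.0285, passing in 6 of 12 leave-one-out fits) and Bnip1 (0.63, adjusted p = 0.0174), and 0 below. Of 23 caspases and their regulators 1 was above 0, and Casp2 and Diablo were below 0 (-0.99 and -0.41), Diablo in only 2 of these fits. Casp2 moved from 25.9, 27.6 and 30.1 to 15.5, 13.1 and 17.9 in hair cells and from 46.6, 41.9 and 43.05 to 48.2, 54.9 and 41.8 in non-hair cells. Of 30 p53 pathway genes 3 were above 0, among them the p53 ligase gene Mdm2 (0.56, adjusted p = 0.0116) and Plk3 (1.09), and Tnfrsf10b, a death receptor, was below 0 (-0.55, passing in 4 of 12). Of 36 Nrf2 targets 0 were above and 3 below, the pentose phosphate enzymes Pgd, G6pdx and Tkt at -0.53, -0.51 and -0.44, the last pair passing in 4 and 5 of 12.

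Many genes of ribosome biogenesis rose in both populations, and part of them further in hair cells. Of 112 tested, 72 rose in hair cells and 1 fell, 39 rose in non-hair cells and 0 fell, and 31 met the criteria in both. Over all genes 12.7% rose in hair cells and 3.18% in non-hair cells. The median response was 0.37 in hair cells and 0.23 in non-hair cells. A called difference was found in 25 above 0 (22.3%) and 1 below, beside 6.85% and 6.57% of all genes. Nop58, a core protein of the box C/D particles that methylate ribosomal RNA, had 43.6, 46.1 and 45.98 and 85.9, 90.1 and 87.3 in hair cells. In non-hair cells it had 48.4, 47.1 and 47.2 and 57.7, 64.03 and 55.1, and its rise was larger in hair cells by 0.65 (95% interval 0.45 to 0.85, adjusted p = 0.00293). Nucleolin, Ncl, had responses of 0.27 and 0.25, the second just under the 1.2-fold criterion, with an interval of the difference from -0.20 to 0.23. Gnl3, which encodes nucleostemin, and the polymerase I factors Taf1d and Taf1a rose in hair cells, with differences of 1.08, 1.19 and 0.86 and non-hair cell responses of 0.01, -0.17 and -0.14.

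Of 100 splicing factors 22 were above 0 and 4 below, all but 1 of them at matched baseline. The shares were 6.85% above and 6.57% below 0 over all genes, and 10% and 7.01% over all matched genes. Ptbp2, a splicing repressor of neural exons, had 35.003, 32.2 and 44.1 and 115, 128 and 96.5 in hair cells against 49.3, 62.002 and 54.2 and 56.6, 57.2 and 56.8 in non-hair cells. Between the populations the difference was 1.56 on the log2 scale (95% interval 1.15 to 1.97, limma adjusted p = 0.00116). The CDC-like kinases Clk1 and Clk4, which phosphorylate SR proteins, and cyclin L1 (Ccnl1) differed by 0.97, 1.43 and 1.45, while Snrpa of the U1 particle was below 0 at -0.72. In the list of polymerase II, Mediator and Integrator genes 15 of 102 were above 0 and 6 below. Of its 94 members at matched baseline 14 were above and 6 below, beside 10% and 7.01% of all matched genes. Hexim1, the inhibitor of the elongation factor P-TEFb, went from 65.7, 61.9 and 66.99 to 230.0, 247 and 176 in hair cells and from 91.9, 79.7 and 84.9 to 111, 105 and 100.2 in non-hair cells. The difference of the responses was 1.43 on the log2 scale (95% interval 1.08 to 1.77, limma adjusted p = 0.000876). Polr2a, the largest subunit of the polymerase, rose in non-hair cells instead (0.10 in hair cells, 0.51 in non-hair cells, adjusted p = 0.0422 for the difference, passing in 3 of 12 leave-one-out fits). With total-read scaling the split became 30 above and 3 below for splicing and 22 and 3 for the polymerase list.

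**Figure D4:**
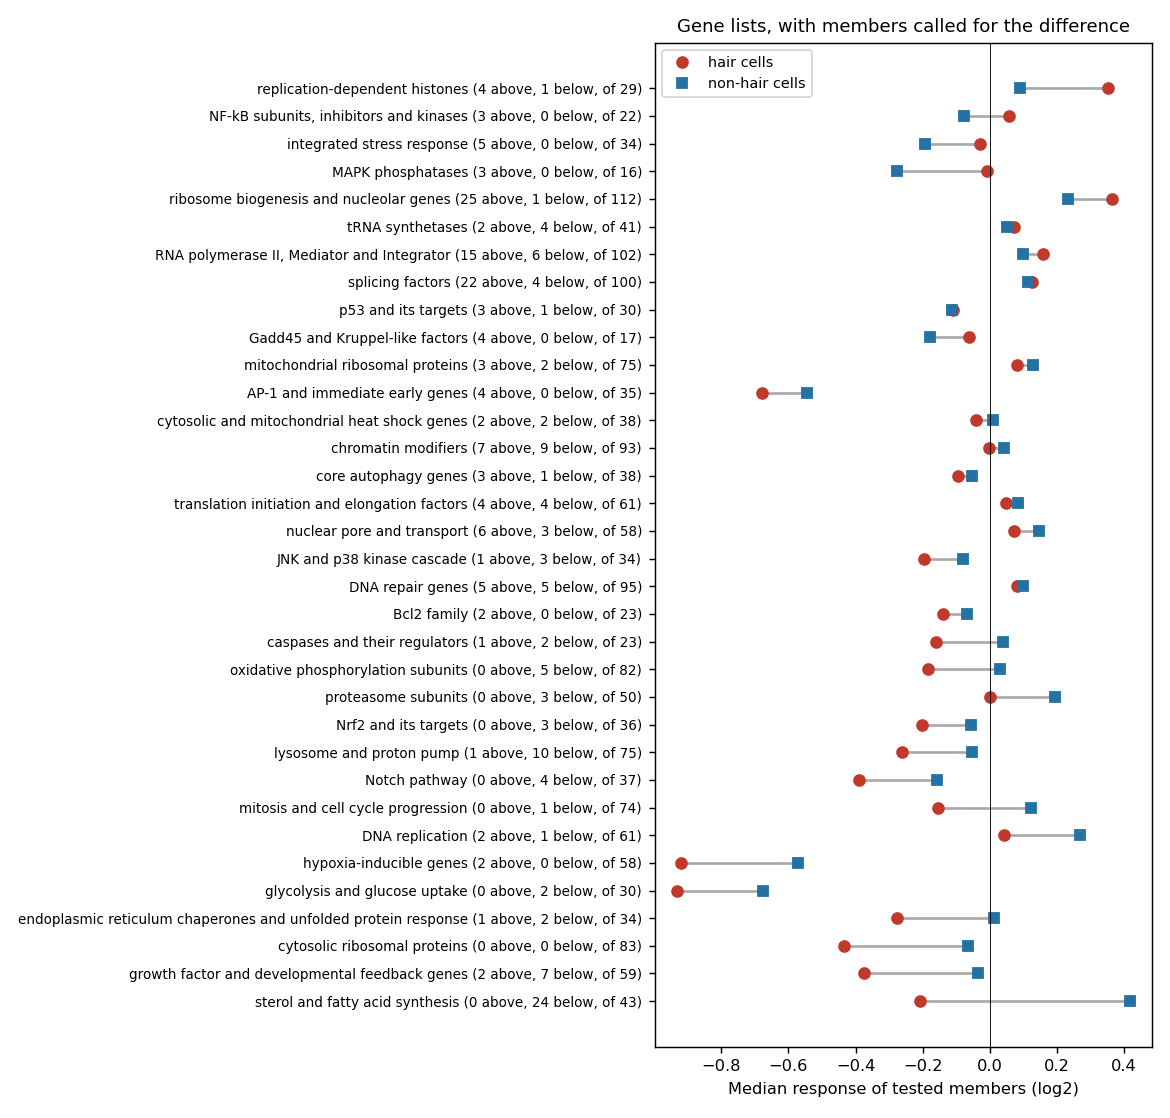
Median response (log2) of the tested members of each gene list in hair cells (red circles) and non-hair cells (blue squares), ordered by the median difference, with the number of members called above and below 0. Sterol synthesis at the bottom has its markers furthest apart (-0.21 and 0.42), ribosome biogenesis lies to the right in both populations (0.37 and 0.23), and glycolysis to the left in both (-0.93 and -0.68).

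Cytosolic ribosomal proteins mostly had differences below 0 without calls. Of these genes 28 of 83 fell in hair cells and 0 did in non-hair cells, beside 14.8% and 2.26% of all genes. The median difference was -0.37 and 79 of 83 genes had a difference below 0. None of the 83 had a called difference, so the share called was below the background of 6.57%, and with the replicate number as a block 9 were called. Copies of ribosomal protein genes are scattered over the genome and can share reads, which makes their values uncertain. Eef1a1, the main elongation factor, had 4824, 4780.2 and 4457 and 2558, 2042 and 2382 in hair cells and 8949, 7433 and 7402 and 8273, 7498 and 6250.1 in non-hair cells (difference -0.90, adjusted p = 0.0808). Of 75 lysosome genes 22 fell in hair cells and 1 in non-hair cells, beside 14.8% and 2.26% of all genes. In the lysosome list 10 were called below 0 and 1 above, against 6.57% and 6.85% of all genes. Lamp1 and the sulfamidase Sgsh were among those below (-0.44 and -0.91, adjusted p = 0.0256 and 0.0197, passing in 7 and 9 of 12 leave-one-out fits), and the 1 above was Cd68. Of 82 subunits of oxidative phosphorylation 5 were below 0 and 0 above, led by Ndufb9 of complex I with 114, 109 and 100.1 and 56.4, 48.8 and 51.9 in hair cells. In non-hair cells Ndufb9 had 67.9, 59.4 and 63.8 and 72.4, 68.7 and 64.6 (difference -1.15, adjusted p = 0.000652). Of 50 proteasome subunits 8 rose in non-hair cells and 4 in hair cells, beside 3.18% and 12.7% of all genes. In this list 3 were called below 0, beside 6.57% of all genes.

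Part of the mesenchymal markers fell in hair cells, where they were low to begin with. Of 23 tested 11 fell there, beside 14.8% of all genes. A called difference was found in 6, all below 0. The share below 0 was 6.57% over all genes and 13.1% among those higher in non-hair cells. Fn1, the matrix protein fibronectin, had 60.8, 134 and 64.04 and 30.1, 35.8 and 40.7 in hair cells and 1245, 1386 and 898 and 1483, 2346 and 1110.5 in non-hair cells (difference -1.63, adjusted p = 0.0383, passing in 4 of 12 leave-one-out fits). The mean log2 score of the list was 3.65, 4.37 and 3.76 in control and 3.06, 3.21 and 3.35 in treated hair cells, and 7.51, 7.46 and 7.27 and 7.54, 7.84 and 7.36 in non-hair cells. The fall moved together with the lower share of non-hair cell RNA given above. Its part in the called differences was not tested. Only 1 of the 23 was at matched baseline, and it was not called.

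Shared responses were measured as well. At matched baseline 194 genes met the criteria in the same direction in both populations, 127 up and 67 down. They were 7.33% of the genes changed in hair cells and 37.9% of those changed in non-hair cells. In either direction, 2647 of all 8156 matched genes changed in hair cells and 512 in non-hair cells. Over all genes the 277 shared responses became 130 without control non-hair cell replicate 2 and 154 without treated non-hair cell replicate 2. In 23 of the 194 the sizes nevertheless differed, and in 132 the 95% interval of the difference lay within 1.5-fold. Pspc1, a protein of paraspeckles, led the rises. Its scores were 43.3, 39.9 and 45.6 and 92.4, 96.8 and 91.5 in hair cells, and 29.02, 24.4 and 32.9 and 65.5, 75.8 and 65.8 in non-hair cells. The responses were 1.13 and 1.27 with an interval of the difference of -0.47 to 0.18. Utp20 and Heatr1 of the small subunit processome rose by 0.65 and 0.60 in hair cells and by 0.73 and 0.66 in non-hair cells. Polr3b, a core subunit of RNA polymerase III, rose by 0.57 and 0.56, with an interval of -0.26 to 0.29. Pop1, of the RNase P and RNase MRP particles, rose in both but further in hair cells (1.66 and 0.66, adjusted p = 0.0321 for the difference, passing in 4 of 12 leave-one-out fits), and Hnrpdl by 1.03 and 0.54. The difference for Hnrpdl was 0.49 (limma adjusted p = 0.0738), and 0.66 without the 2 libraries low in glycolysis genes (limma adjusted p = 0.0176).

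Markers of neurons were lower beside the shared falls, with medians over 18 genes of -0.71 in hair cells and -0.60 in non-hair cells. However, only 3 met the criteria as fallen in hair cells and 0 in non-hair cells, beside 14.8% and 2.26% of all genes. Their mean log2 score was 4.91, 5.43 and 5.12 in control and 4.54, 4.45 and 4.56 in treated hair cells, and 5.70, 6.66 and 6.58 and 5.74, 5.09 and 6.33 in non-hair cells, where control and treatment overlapped. Without the 2 libraries low in glycolysis genes the medians of these markers were -0.78 in hair cells and -0.28 in non-hair cells. Their part in the shared falls was not tested. Among those falls at matched baseline was Nrarp, a target and feedback inhibitor of Notch signaling. It had 52.6, 55.5 and 64.5 and 20.8, 17.1 and 25.7 in hair cells. In non-hair cells it had 46.01, 49.8 and 71.6 and 33.4, 25.1 and 45.4, and the difference of -0.75 was not called (95% interval -1.46 to -0.05, adjusted p = 0.141, or 0.0237 with the replicate number as a block). Without the 2 libraries low in glycolysis genes the difference for Nrarp was -1.11 and was called (limma adjusted p = 0.0354). Hes5, a Notch effector chosen after its values were seen, met the criteria in hair cells alone. It went from 62.4, 58.6 and 96.2 to 13.4, 13.3 and 29.4 in hair cells and from 44.1, 34.8 and 89.9 to 22.6, 16.5 and 38.5 in non-hair cells, where 1 treated replicate overlapped the controls. The remaining leading genes were March4, a membrane ubiquitin ligase, Rhov, a small GTPase, Gm996, Ypel4 and Nyap1, with hair cell responses of -1.43, -0.90, -0.93, -1.37 and -0.91. Their non-hair cell responses were -1.13, -0.88, -0.81, -0.70 and -0.69, and the interval for Rhov, -0.77 to 0.72, still allowed a difference of either sign. Each of these genes, like Nrarp, was lowest in replicate 2 among treated non-hair cells, a library low in glycolysis genes. Over the Notch list 17 of 37 genes fell in hair cells, where 14.8% of all genes did, and 3 in non-hair cells, where 2.26% did. The 4 called below 0, beside 6.57% of all genes, included Heyl (-0.91) and Notch2 (-1.20), which passed in 4 and 11 of 12 leave-one-out fits. Notch2 was much higher in non-hair cells, with 129, 125 and 113 and 151, 186 and 133 there and 16.9, 25.6 and 15.5 and 9.13, 9.16 and 13.5 in hair cells. Supporting cells express many Notch genes. Of 27 of their markers 6 fell in hair cells, beside the same 14.8% of all genes (median -0.68, against -0.17 in non-hair cells). The mean log2 score of these markers was 6.64, 6.65 and 6.88 in control and 6.16, 5.56 and 6.45 in treated hair cells, and 6.70, 6.88 and 7.31 and 6.81, 6.42 and 7.13 in non-hair cells. Markers of Schwann cells and glia had a hair cell median of -0.51. Their part in the Notch values was not tested.

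Glycolysis genes had median responses below 0 in both populations, which rested in part on single libraries. The median response of 30 glycolysis genes was -0.93 in hair cells and -0.68 in non-hair cells. As fallen, 5 met the criteria in hair cells and 0 in non-hair cells, beside 14.8% and 2.26% of all genes. The mean log2 score of the list was 6.84, 6.56 and 5.63 in the treated hair cell replicates and 7.46, 5.94 and 7.24 in the treated non-hair cell replicates, with controls of 7.28, 7.45 and 7.22 and 7.54, 7.61 and 7.44. Replicate 3 was the lowest of the treated hair cells and replicate 2 the lowest of the treated non-hair cells, the latter by over 1 log2 unit. Pgk1, an enzyme of glycolysis chosen like Vegfa after its values were seen, had 315, 190.3 and 66.7 in treated hair cells and 1233, 173 and 885 in treated non-hair cells, after 488, 561 and 456 and 1344, 1198 and 1135 in controls. Vegfa, a growth factor induced by low oxygen, had 244, 169.9 and 37.7 and 608, 204 and 409, after 343, 428 and 395 and 804, 754 and 487. With these 2 libraries left out the list medians became -0.64 and -0.16, the second being much closer to 0. For 58 hypoxia-inducible genes, a list added after the data were seen, the medians of -0.92 and -0.57 became -0.62 and -0.16. The differences between the populations for Pgk1 and Vegfa were -0.56 and -0.89, with intervals of -2.61 to 1.49 and -2.71 to 0.92, both of which include 0. The 2 glycolysis genes called below 0, the genes of the kinases Pdk3 and Pdk2 that inhibit pyruvate dehydrogenase (-0.75 and -0.60), were still called without the 2 libraries, and passed in 12 and 5 of the 12 leave-one-out fits. The sterol list without them had a median difference of -0.52, and replicate 2 also stood highest among treated non-hair cells in that list.

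**Figure D5:**
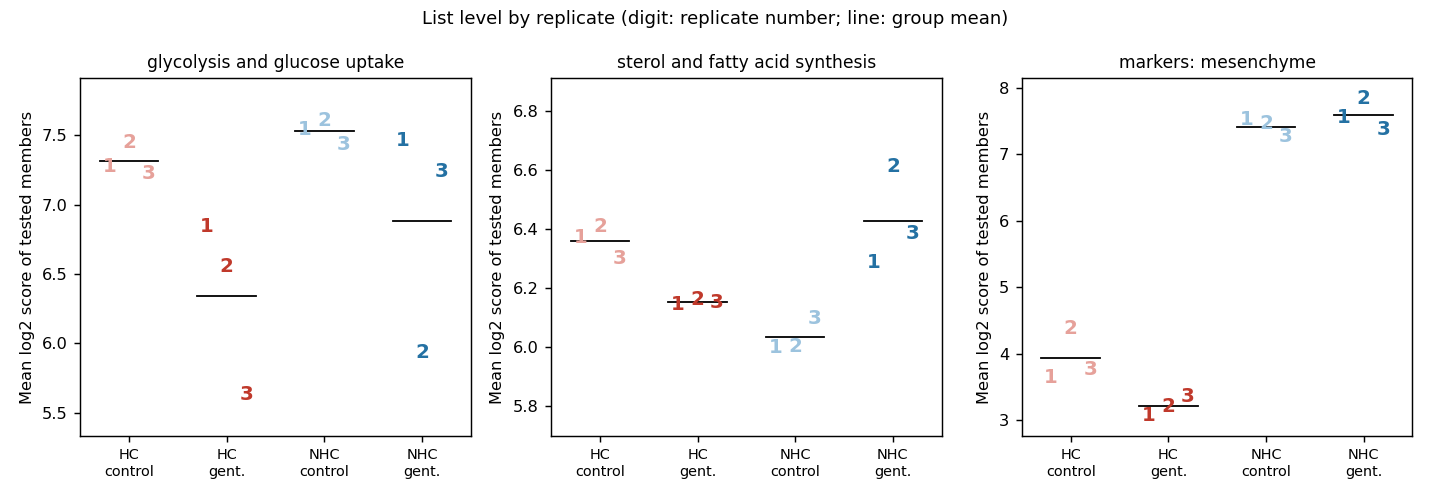
Mean log2 score of the tested members of 3 gene lists in each replicate (digits give the replicate number, lines the group mean; the vertical axes do not start at 0 and differ between panels). Glycolysis is lowest in replicate 3 of treated hair cells (5.63) and replicate 2 of treated non-hair cells (5.94), the sterol list is lower in all treated than in all control hair cell replicates and higher in all treated than in all control non-hair cell replicates, and mesenchymal markers are lower in treated than in control hair cells.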

How the data were processed

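RNA of sorted hair cells and non-hair cells, with and without gentamicin, was sequenced as single 50 bp reads. Per the labels and methods the authors aligned the reads with TopHat2 to mm10 and quantified them in Partek Flow, and the deposited values are scores: read numbers times 1 factor per replicate, plus 1. At low values 83.3% to 84.5% of scores gave whole reads within 0.1 of a read. The study calls its replicates biological, but the labels name no separate cultures, so p-values measure the spread between these samples, which may be technical.

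Log2 scores of the 4 groups were fitted with limma 3.58.1 (trend) in R 4.3.3, after a filter of 100 reads, and the difference of both responses was called at an adjusted p under 0.05. The fitting was tested on simulated data. Members and gene lists were chosen with earlier results of these data known. Named genes were those with the largest differences in each class, up to 3 per list and direction, and preset leading members. Genes named for a class also had to show no overlap of control and treated replicates in each population called. Further named genes, Jun, Fn1, Hmgcs1, Cebpb and Cebpg among them, were chosen after their values were seen. A few genes that the rule names are not reported here. Positions are from GENCODE M21 and promoters from RefSeq. Intervals cover the spread between replicates. Alternatives covered scaling, offset, filters, weights, thresholds, a replicate block and single replicates left out.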

Additional observations from a re-analysis of the deposited data

Results flagged for a closer look

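The response to gentamicin differed between the populations by the test of the difference itself in 2158 genes, 1388 of them at matched baseline, and the values below are differences of responses on the log2 scale, hair cells minus non-hair cells. The groups hold 3 replicates each, too few for a test of single outlying samples. Among genes that rose in hair cells and fell in non-hair cells the differences were Klf11 2.08, Ddit3 1.88, Zfp949 1.74, Zfp97 1.40, Zfp40 1.21 and N4bp2l1 0.96. For falls in hair cells with rises in non-hair cells they were Procr -2.76, Insig1 -1.64, Dhcr7 -0.99, Zfp783 -0.97 and N4bp2 -0.89.

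Genes that rose in hair cells alone by the criteria of the study gave Dusp8 2.93, Rps6kl1 2.56, Gm16973 2.47, Atf4 1.83, 2610307P16Rik 1.81 and Gm8801 1.73, and genes that fell there alone gave Cxcr7 -1.46, Ncrna00085 -1.45, Tmem150a -1.39, Abi3bp -1.25, Cdkn1c -1.25 and Bambi -1.23. Where non-hair cells alone fell, the differences were Ovgp1 1.17, Txnip 0.98, Fchsd1 0.65, Mdm1 0.54 and Timm44 0.53, and where they alone rose, Egfl7 -1.58, Sgsh -0.91, Idi1 -0.85 and Sc4mol -0.80. Procr had a mean score of 1.77 in treated hair cells, so few reads stood behind that value. Ovgp1 was also low, with a mean score of 2.98 in treated non-hair cells. Abi3bp and Bambi had mean scores of 6.22 and 11.98 in treated hair cells.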

How the results depend on the processing

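Counts of calls depended on thresholds and on single libraries. Leaving out 1 replicate at a time gave 1163 to 2378 genes with a called difference, 763 to 1495 at matched baseline, 18 to 65 opposite responses and 130 to 374 shared responses. An adjusted p under 0.01 left 601 genes, and a difference above 1.5-fold left 1359. With an adjusted p under 0.05 in each population 3 opposite and 21 shared responses were left, and with changes above 1.5-fold 4 and 42. Without the 2 libraries low in glycolysis genes, an alternative chosen after seeing the data, 142 shared responses were left. The cause was not tested. The other alternatives (scaling by TMM, by total reads or by the median, offset, read filters, weights) kept these counts within 1.5 times. Deviations from a mean of 3 replicates cancel within a group. A positive correlation of same numbers therefore pushes that of different numbers below 0. Deviations of same-numbered control replicates correlated between hair cells and non-hair cells (0.20 to 0.32, 3 of 3 best with their own). For different numbers the values were -0.27 to -0.05. Those of same-numbered treated replicates (-0.04 to 0.38) and of controls with treated (-0.23 to 0.68) did not all correlate. The replicate number was therefore kept as an alternative block, and with the replicate number as a block 2306 genes were called (1115 above and 1191 below 0), 1442 at matched baseline, with 38 opposite and 273 shared responses. The block thus turned the larger side from above to below 0. Of 748 alternative values of the 34 genes that lead the groups, 692 stayed on their side of the threshold, 56 lost it and 0 turned in direction. Some called genes of the text lost the call without a single replicate, and their highest limma adjusted p is given with that replicate. Without control hair cell replicate 2 it was 0.0627 for Abi3bp, 0.0758 for Map3k4, 0.0704 for Mcl1, 0.0646 for Mdm1, 0.0769 for Pdk2, 0.0812 for Pop1, 0.0613 for Sox18 and 0.0927 for Ypel4. Without control hair cell replicate 1 it was 0.0602 for Cdkn1c, 0.105 for Diablo, 0.1 for G6pdx and 0.0918 for Polr2a. Without control non-hair cell replicate 2 it was 0.1 for Bambi, 0.0575 for Fcgr1, 0.0639 for Lamp1, 0.0523 for Sgsh and 0.0731 for Txnip. Without treated hair cell replicate 2 it was 0.0851 for Elk1, 0.101 for Fchsd1, 0.0872 for Heyl, 0.0558 for Notch2, 0.0544 for Ovgp1, 0.0716 for Ppp1r15a and 0.068 for Tkt. Without control hair cell replicate 3 it was 0.0918 for Nfkbib and 0.0689 for Tnfrsf10b. Without treated hair cell replicate 1 it was 0.0805 for Fn1. Low scores limit the genes near the floor of 1, where the added 1 shrinks a change.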

Other observations

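Further gene groups held called differences in both directions, to be read beside 6.85% above and 6.57% below 0 over all genes. Of 29 replication-dependent histone genes 12 rose in hair cells and 2 in non-hair cells, beside 12.7% and 3.18% of all genes. In this list 4 were called above 0 and 1 below, although none was at matched baseline. Hist1h1e, a linker histone gene, had 3.53, 3.45 and 2.92 in control and 17.1, 21.5 and 23.2 in treated hair cells, against 1.65, 1.52 and 1.53 and 1.81, 1.61 and 1.59 in non-hair cells, close to the floor of 1, where a change could hardly show (difference 2.54, limma adjusted p = 0.0001995). These messages mostly lack a polyA tail, and histone gene copies can share reads. Of 95 DNA repair genes 5 were above and 5 below 0, beside the same shares of 6.85% and 6.57%. Rad52, which acts in recombination, had a difference of 1.16, and the kinase gene Atm one of -0.96.

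The called counts of the following lists are to be read beside 6.85% above and 6.57% below 0 over all genes. Of 59 growth factor and developmental feedback genes 15 fell in hair cells and 4 in non-hair cells, beside 14.8% and 2.26% of all genes. In this list 2 were called above and 7 below 0. Fgf8, a ligand made by inner hair cells, went from 94.6, 84.5 and 101 to 44.4, 46.5 and 65.1 in hair cells. In non-hair cells its scores of 1, 1.04 and 1.04 and 1.08, 1.07 and 1.14 were at or near the floor of 1, so no response can be compared there. Of 93 chromatin modifiers 7 were above and 9 below 0, with the deacetylase gene Sirt1 at 1.03 and the methyltransferase gene Mll2 at -0.80. Of 38 core autophagy genes 3 were above and 1 below, with Atg14 at 0.69 and the kinase gene Ulk1 at -0.66. Of 27 supporting cell markers 1 was called, below 0, and the list median was -0.53. Cd68 and Fcgr1 were the 2 of 19 macrophage markers called above 0, and the median of that list was 0.01.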
